A study of Homo sapiens with 2 samples.

Results

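Loci with reads on both strands were 605 windows of 100 nt on chromosomes 1 to 22 and X, each with at least 5 A positions of the plus-strand transcript and at least 5 of the minus-strand transcript that were listed in both libraries. They made up 0.343% of the 176542 windows with at least 5 such positions on a strand. The windows were set against 173582 one-strand windows, in which the opposite strand had no listed position in either library, while 2355 windows lay between these classes. The cells were HEK-293T, a line derived from human embryonic kidney, and their messenger RNA was sequenced with and without the small molecule ABA. Both groups carried a CIRTS-hADAR biosensor, in which an engineered RNA-targeting system is joined to a human ADAR part. Per the labels there was 1 biological replicate, with a single library for each condition, so no replicate checks any difference given between them.

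ADAR enzymes deaminate adenosine to inosine in double-stranded RNA, and sequencing reads inosine as G. Sense and antisense transcripts overlap where convergent genes run into each other's ends and where divergent genes start from a shared promoter, and such a pair can in principle form double-stranded RNA. In an alignment split by strand, a locus of this kind shows A positions of both transcripts side by side.

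The ABA library held 45277712 base reads at 3518802 listed positions, and the library without ABA held 51092343 at 4079392. Median depth was 10 reads per position in each library and strand, and no position had fewer than 6 reads. Every rate divides the G reads by the sum of A and G reads at positions listed in both libraries. Intervals are at 95% and cover counting error only, and p-values compare the 2 libraries and not the conditions. Reads without molecular identifiers are not independent molecules and 1 read covers several positions, so the intervals are too narrow.

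The 5 windows with most G reads with ABA are shown first, because they carry the highest counts of the change under study. In each line, a is an A of the deeper strand listed in at least 1 library, t is an A of the opposite strand listed likewise and written as its complement, and n is a base listed on neither strand. A capital marks a base with at least 1 G read with ABA. Lines run 5′ to 3′ on the deeper strand, in hg19 positions as the files give them, and show the 30 bases of each window that hold most such bases.
chr21:46642019-46642048, plus strand: naAnnnnnntntnttnAnAnnnttnatnAA
chr1:91853029-91853058, minus strand: AnaaAnntnnnntnnAnnanaAnnnnaaaA
chr21:46604841-46604870, plus strand: nannAnatAnanAnnnaaatnntaaannAA
chr17:37360843-37360872, plus strand: AnnnnaanAAnnAnnAnatnatnaanAntt
chr3:12877634-12877663, minus strand: aaAnanntnnnnAAntnnnnatnAnantnA
All capitals in these 5 lines stand on the deeper strand. Over the whole of these 5 windows, 52 of the deeper strand's A positions had a G read with ABA, while no A of the opposite strand had one. Of the 52, 41 were followed by a base listed on neither strand and 11 by a listed A or T. Of the 98 A positions without a G read, 41 were followed by an unlisted base, 55 by a listed one, and 2 stood at a window's end.

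Windows with the most even depth are shown next. The same notation is used for 2 of the 5 most even windows with at least 1000 base reads, the ones in which a G read with ABA was found. These were chosen by balance and those above by their G reads, so the 2 groups are not a like comparison. Strands of the 5 most even windows averaged 9.87 to 19.4 reads with ABA, against 118 to 170 on the deeper strands above.
chr14:24909137-24909166, minus strand: tTtnnnattnttntnttnntnnannttatt
chr16:732663-732692, minus strand: nnannntnanntnnttttnnAnnnnanaaa
The first holds 1 G read on its shallower strand and the second holds 1 on its deeper strand.

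The A-to-G rate over both strands of the 605 windows was 0.254% with ABA (2314 of 909846 reads, 0.244% to 0.265%) and 0.131% without ABA (1203 of 917619 reads, 0.124% to 0.139%). The ratio of ABA to no ABA was 1.94 (1.81 to 2.08), beyond counting error. The plus and minus strands of the genome did not differ beyond counting error in this respect. Plus-strand A positions had 0.242% with ABA and 0.123% without ABA, a ratio of 1.97 (1.77 to 2.19). Minus-strand A positions had 0.265% with ABA and 0.138% without ABA, a ratio of 1.92 (1.74 to 2.11). The plus-strand ratio over the minus-strand ratio was 1.03 (0.893 to 1.18).

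One-strand windows had lower rates, 0.0705% with ABA and 0.0367% without ABA, and a ratio of 1.92 (1.88 to 1.96). The rate in both-strand windows over that in one-strand windows was 3.61 (3.46 to 3.77) with ABA and 3.58 (3.37 to 3.79) without ABA. Both-strand windows thus stood higher in each library, while no difference in the ratio of ABA to no ABA was found beyond counting error, since the both-strand ratio over the one-strand ratio was 1.01 (0.938 to 1.09). Windows between the classes had intermediate rates, 0.173% with ABA and 0.0939% without ABA, with a ratio of 1.84 (1.73 to 1.95).

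Nearly all G reads lay on the deeper of the 2 strands, the strand with the higher mean depth over both libraries. On it the rate was 0.270% with ABA (2292 of 850118 reads) and 0.140% without ABA (1185 of 847536 reads), a ratio of 1.93 (1.80 to 2.07). The shallower strand had 0.0368% with ABA (22 of 59728 reads, 0.0231% to 0.0558%) and 0.0257% without ABA (18 of 70083 reads, 0.0152% to 0.0406%). Its ratio of ABA to no ABA was 1.43 (0.734 to 2.84), an interval that holds both 1 and the deeper strand's ratio. In the ABA library the shallower strand's rate over the deeper strand's rate was 0.137 (0.0854 to 0.207), and in the library without ABA it was 0.184 (0.108 to 0.292). Pooled over windows, the 2 strands thus differed in rate in each library. The shallower-strand ratio of ABA to no ABA over the deeper-strand ratio was 0.744 (0.397 to 1.39), which is not past counting error. It was 0.612 (0.481 to 0.778) with variant-like positions kept, those with a G share of at least 35% in either library, and 0.253 (0.0791 to 0.811) with windows chosen from positions of at least 10 reads, both past it.

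Set against one-strand windows, the 2 strands stood on opposite sides. The deeper strand's rate was 3.83 times (3.66 to 3.99) that of one-strand windows with ABA and 3.81 times (3.59 to 4.05) without ABA. For the shallower strand these values were 0.523 (0.328 to 0.792) with ABA and 0.701 (0.415 to 1.11) without ABA, so its lower rate was beyond counting error in the ABA library only, and the difference between the libraries was not, at 0.746 (0.400 to 1.39).

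Changes of the same positions to C or T served as the background. On the deeper strand the A-to-C rate was 0.0261% with ABA and 0.0282% without ABA, a ratio of 0.923 (0.765 to 1.11). The A-to-T rate there was 0.0138% with ABA and 0.0180% without ABA, a ratio of 0.768 (0.599 to 0.984). Neither background change was higher with ABA on that strand. The shallower strand had 4 A-to-C reads with ABA and 5 without ABA, and 3 A-to-T reads with ABA and 5 without ABA, too few for a comparison. One-strand windows had A-to-C rates of 0.00680% with ABA and 0.00569% without ABA, a ratio of 1.19 (1.13 to 1.27). The background changes, like A-to-G, were thus more frequent on the deeper strand of both-strand windows than in one-strand windows. The A-to-G rate over the A-to-C rate on the deeper strand was 10.3 (9.01 to 11.9) with ABA and 4.95 (4.31 to 5.72) without ABA. In one-strand windows this quotient was 10.4 (9.95 to 10.8) with ABA and 6.44 (6.15 to 6.75) without ABA.

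**Figure D1:**
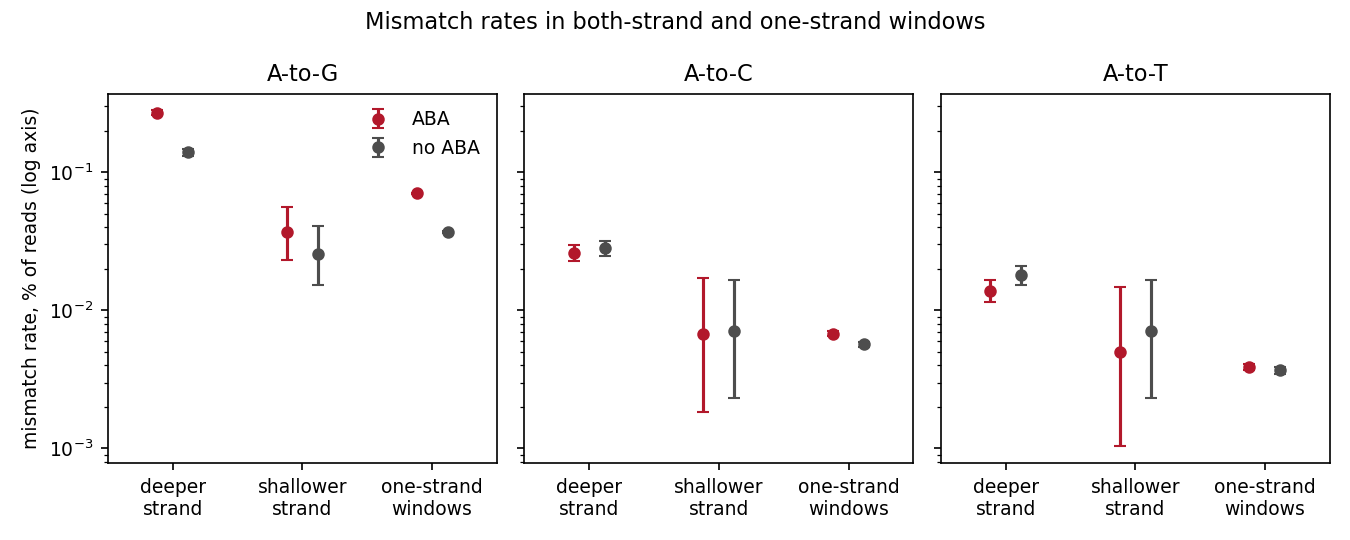
Mismatch rates in % of reads (log axis) on the deeper and shallower strands of the both-strand windows and in one-strand windows, for each change, with 95% counting intervals and 1 library per colour. A-to-G on the deeper strand stands at 0.270% with ABA and 0.140% without ABA, above the other A-to-G sets, while the A-to-C and A-to-T points of the deeper strand are not higher with ABA.

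Depth was part of how the windows were chosen, since a position needed 6 reads in each library to be listed, so depth balance is given as a description. The deeper strand averaged 68.7 reads per position with ABA and 68.5 without ABA, over 12379 positions. The shallower strand averaged 10.4 reads with ABA and 12.2 without ABA, over 5770 positions, close to the listing limit. One-strand windows averaged 13.6 reads with ABA and 14.0 without ABA. The deeper strand was thus several times as deep as one-strand windows, and the shallower strand somewhat less deep. The plus strand was the deeper one in 284 windows and the minus strand in 321.

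The shallower strand held a median of 13.5% of a window's summed mean depth with ABA (3.02% to 62.5%) and 16.5% without ABA (3.14% to 59.5%). Values above 50% belong to windows where the strand that was shallower over both libraries was the deeper one in 1 of them, as happened in 43 windows. The share was lower with ABA in 425 windows and higher in 180. This went with fewer reads on the shallower strand and not on the deeper one. Mean depth of the shallower strand was lower with ABA in 443 of the 605 windows, with a median log2 change of -0.24, and that of the deeper strand in 298, with a median log2 change of 0.00. Relative to each library's nuclear base reads, the ratio of ABA to no ABA was 0.876 for the shallower strand, 1.03 for the deeper strand and 0.998 for one-strand windows. At like depth, by the lower of a position's 2 depths, the shallower strand again had the lowest ratio of base reads. These ratios were not scaled to library size, so they are not comparable in level with those above. At 6 to 9 reads the ratio was 0.834 on the shallower strand, 0.886 on the deeper strand and 0.929 in one-strand windows. In the same order it was 0.865, 0.936 and 0.976 at 10 to 19 reads. At 20 to 49 reads it was 0.889, from only 207 shallower-strand positions, against 0.989 and 1.02. No replicate shows how far such shares move between libraries of 1 condition.

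Depths of the 2 strands were related across windows. The Pearson correlation of their log2 mean depths was 0.418 over 605 windows, which share libraries and the limit of 6 reads. Where the deeper strand had a mean depth of 6 to under 20 reads (125 windows), the shallower strand's median depth was 8.70 reads, a median share of 42.7%. From 20 to under 50 reads (135 windows) it was 9.08 reads and 21.6%, and from 50 to under 100 reads (199 windows) it was 10.5 reads and 12.7%. At 100 reads and more (146 windows) it was 12.9 reads and 8.42%. The share therefore ran down as the deeper strand's depth went up, while the shallower strand's own depth varied little. Changes in depth between the libraries were almost unrelated between the strands, with a correlation of 0.0935.

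**Figure D2:**
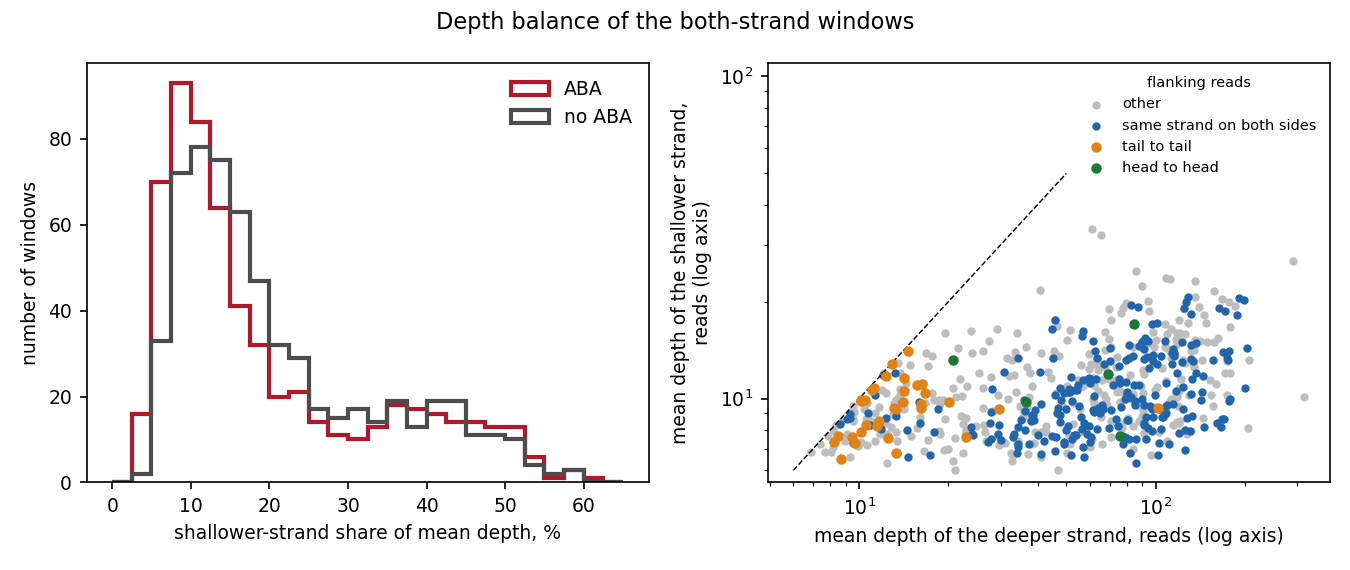
Left, number of both-strand windows by the shallower strand's share of mean depth in each library, with medians of 13.5% with ABA and 16.5% without ABA. Right, mean depth of the shallower against the deeper strand over both libraries, in reads on log axes, 1 point per window, coloured by the strand of the flanking reads, with the dashed line at equal depth; most tail-to-tail windows lie near that line.

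Windows were also split by balance, over both libraries pooled. Because the share ran down as the deeper strand's depth went up, this is also a split by depth. The parts of balance and depth in it cannot be told apart. In the 138 windows whose shallower strand held under 10% of the depth, the deeper strand had an A-to-G rate of 0.319% with ABA and 0.178% without ABA, a ratio of 1.79 (1.62 to 1.98). The shallower strand of these windows had 1 G read of 13127 with ABA and 2 of 16009 without ABA. Its rate over the deeper strand's rate was 0.0239 (0.000605 to 0.133) with ABA and 0.0701 (0.00847 to 0.254) without ABA. In the 298 windows with a share of 10% to under 25%, the deeper strand had 0.254% with ABA and 0.123% without ABA, a ratio of 2.05 (1.85 to 2.28). Their shallower strand had 9 of 27606 reads with ABA and 11 of 34191 without ABA, a ratio of 1.01 (0.371 to 2.69). In both of these classes the shallower strand stood below the deeper one in each library, beyond counting error.

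The 169 windows with a share of 25% and more differed in this. Their deeper strand had 0.0748% with ABA (39 of 52105 reads) and 0.0398% without ABA (23 of 57758 reads), a ratio of 1.88 (1.10 to 3.30). Their shallower strand had 0.0632% with ABA (12 of 18995 reads) and 0.0251% without ABA (5 of 19883 reads), a ratio of 2.51 (0.824 to 9.10). The shallower strand's rate over the deeper strand's was 0.844 (0.402 to 1.65) with ABA and 0.631 (0.188 to 1.70) without ABA, so no difference between strands was detectable in balanced windows. The 2 strands of these windows had rates nearer to the 0.0705% with ABA and 0.0367% without ABA of one-strand windows than the other classes' deeper strands had. Over all classes, deeper-strand positions with 10 to 19 reads had 0.0665% with ABA, against 0.0631% in one-strand windows at that depth. Without ABA they had 0.0659%, against 0.0333%, a quotient of 1.98 (1.17 to 3.13).

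**Figure D3:**
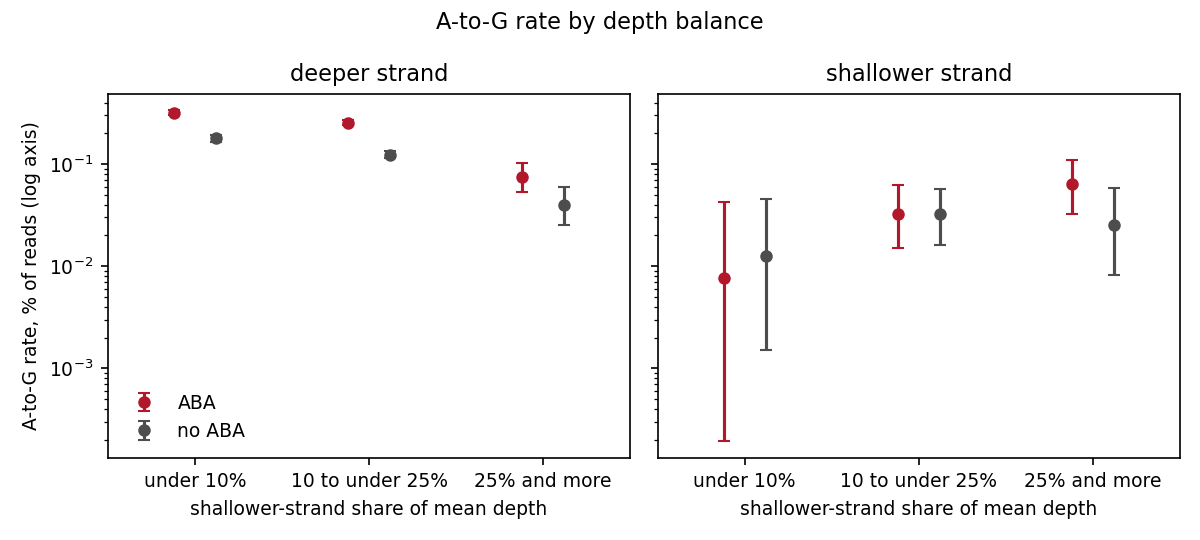
A-to-G rate in % of reads (log axis) on the deeper and shallower strands by the shallower strand's share of depth, with 95% counting intervals and 1 library per colour. The deeper strand runs from 0.319% with ABA in the most uneven windows to 0.0748% with ABA in the most even ones, where the shallower strand has 0.0632%. The deeper strand's depth changes along with the share and was not held constant.

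Because rates went up with depth on the deeper strand and in one-strand windows, the sets were compared at like depth, by the lower of a position's 2 depths. At 6 to 9 reads the rates with ABA were 0.0564% on the deeper strand, 0.0530% on the shallower strand and 0.0526% in one-strand windows. Without ABA they were 0.0300%, 0.0236% and 0.0264% in the same order. At this depth the 3 sets did not differ beyond counting error. At 10 to 19 reads the deeper strand's quotient over one-strand windows was 1.06 (0.614 to 1.69) with ABA and 1.98 (1.17 to 3.13) without ABA. The shallower strand there had 0.0226% with ABA, against 0.0631% in one-strand windows, a quotient of 0.359 (0.132 to 0.782). Without ABA the shallower strand's quotient was 0.882 (0.403 to 1.68). From 20 to 49 reads the deeper strand had 0.169% with ABA, against 0.0933% in one-strand windows, and 0.0659% without ABA, against 0.0501%. At 50 reads and more it had 0.298% with ABA, against 0.186%, and 0.158% without ABA, against 0.0990%. The deeper strand thus stood above one-strand windows at like depth from 20 reads up in each library, by less than in the pooled rates. Positions of the deeper strand in the deepest class were still deeper, at 107 reads on average with ABA, against 70.8 in one-strand windows.

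With one-strand windows weighted to the depth classes of each strand, the deeper strand stood at 0.270% against 0.167% with ABA, a quotient of 1.61 (1.52 to 1.71), and at 0.140% against 0.0887% without ABA, a quotient of 1.58 (1.45 to 1.71). These are well under the unweighted 3.83 and 3.81. The shallower strand's quotient was 0.608 (0.400 to 0.923) with ABA and 0.821 (0.517 to 1.30) without ABA.

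**Figure D4:**
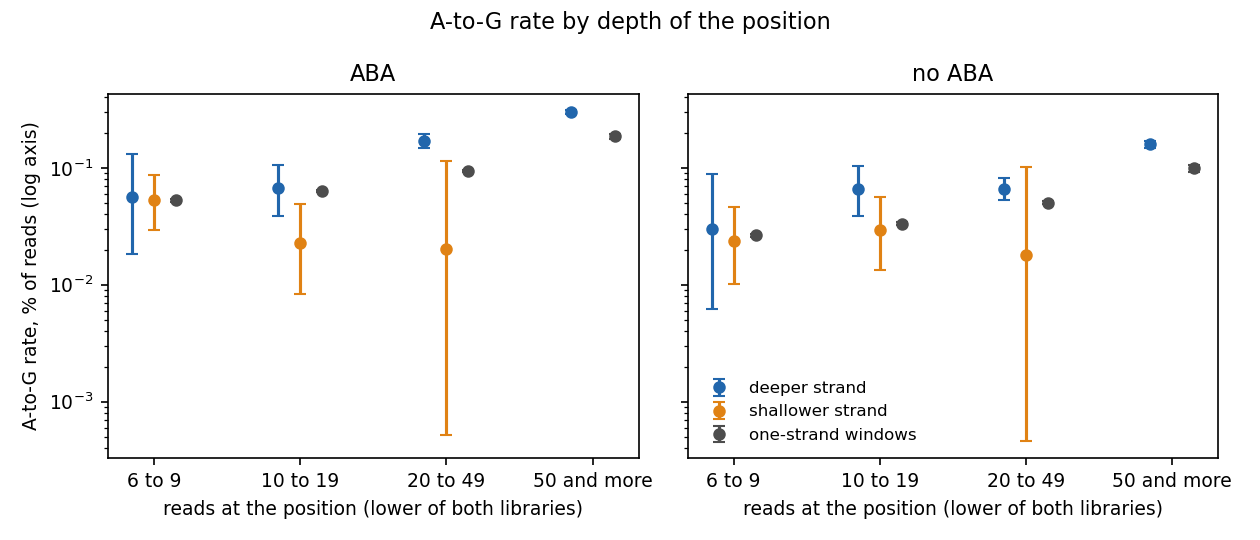
A-to-G rate in % of reads (log axis) by the number of reads at a position, in the ABA library on the left and the library without ABA on the right, with 95% counting intervals. Rates go up with depth on the deeper strand and in one-strand windows, and at 6 to 9 reads the 3 sets lie together, at 0.0526% to 0.0564% with ABA.

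G reads on the shallower strand were single events. With ABA, 22 windows had a G read there and without ABA 18 had one, none held more than 1, and no window had one in both libraries. This strand had only 59728 reads with ABA and 70083 without ABA over all windows. These counts therefore cannot show whether G reads recur in a window. The deeper strand had G reads in 402 windows with ABA and in 345 without ABA, 303 of them in both libraries. G reads on both strands of 1 window were found in 9 windows with ABA and in 9 without ABA. The deeper strand's rate was higher with ABA in 332 windows, lower in 112 and equal in 161, or 54.9% higher and 18.5% lower, against 11% higher and 5.68% lower over all 177147 window strands of any depth.

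Of the deeper strand's 12371 positions, 11.9% had a G read with ABA and 7.96% without ABA, and 321 positions had one in both libraries. Positions with a single G read held 49.3% of these reads with ABA and 72.5% without ABA. A G share of at least 10%, from at least 20 reads and 3 G reads, was reached at 5 positions of the deeper strand with ABA and at 1 without ABA, and at 0 positions of the shallower strand. Whether these positions were edited was not tested. The positions with 20 reads numbered 9991 with ABA and 10088 without ABA on the deeper strand, and 276 with ABA and 595 without ABA on the shallower strand. In one-strand windows 123 of 428539 such positions with ABA and 41 of 452672 without ABA reached that share. The position reached in both libraries was chromosome 1 at 91853001 (minus strand), with 28 of 183 reads (15.3%) with ABA and 21 of 138 (15.2%) without ABA. On the plus strand, chromosome 19 at 5691580 showed 20 of 153 reads (13.1%, 8.17% to 19.5%) with ABA and 11 of 170 (6.47%, 3.27% to 11.3%) without ABA. Also on the plus strand, chromosome 12 at 6647015 showed G in 12 of 103 reads with ABA and 0 of 76 without ABA, where the exact upper bound of 0 reads is 4.74%. On chromosome 21 a position had 4 of 26 reads (15.4%) with ABA and 0 of 20 without ABA, with an upper bound of 16.8%. On chromosome 3 a position had 3 of 22 reads (13.6%) with ABA and 0 of 22 without ABA, with an upper bound of 15.4%, so neither share with ABA lay beyond that bound.

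Each strand of each window was then tested between the libraries by Fisher's exact test, two-sided, with p-values adjusted by Benjamini-Hochberg over 177147 window strands. Of the 1210 strands of both-strand windows, 1 was higher with ABA at an adjusted p under 0.05, and it was also the only one among all window strands tested, 0.000565% of them. None was lower (0% of all tested). At an unadjusted exact p under 0.05, 40 of the 1210 strands of both-strand windows were higher and 0 were lower in the ABA library. Of all 177147 window strands, 133 (0.0751%) were higher and 7 (0.00395%) were lower. By size alone, a change of at least 3-fold with at least 3 G reads in the higher library, 92 strands of both-strand windows (7.60%) were higher with ABA, against 0.512% of all window strands, and 9 (0.744%) were lower, against 0.0881%. All of these 40, 92 and 9 lay on deeper strands, and the part of depth in that was not tested. On simulated data the test recovered 2% of strands of both-strand windows whose rate was raised by 10 times, 24% of those raised by 20 times, 34% for 50 times and 52% for 100 times. The starting rate there was the same for every strand, pooled over all window strands and both libraries. Raised strands were drawn from deeper and shallower ones alike. Recovery on deeper strands alone, which had more reads and a higher rate, was not simulated.

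The strand that passed was the plus strand of chr21:46642000-46642099, the window of the first sequence above. It had 44 of 2479 reads with ABA (1.77%, 1.29% to 2.38%) and 1 of 1328 without ABA (0.0753%, 0.00191% to 0.419%). The ratio was 23.6 (4.02 to 952; exact p = 1.17e-07, adjusted p = 0.0207). No strand of a both-strand window passed with the position of most G reads left out, with windows shifted by 50 nt or at positions with at least 10 reads. Its opposite strand had 0 G reads of 141 with ABA and 0 of 88 without ABA. Mean depth of the plus strand was also higher with ABA, at 118 reads with ABA and 63.3 without ABA, and the part of depth in the result was not tested. The chromosome 21 window at 46604800 had 35 of 4350 reads with ABA (0.805%) and 4 of 3155 without ABA (0.127%), a ratio of 6.35 (2.27 to 24.6; exact p = 2.44e-05, adjusted p = 1), and its depth too was higher with ABA, at 155 reads with ABA and 113 without ABA. Reads of the biosensor's own ADAR part would be placed at the human gene from which it was taken. The gene at these windows was not determined here, and whether they hold such reads was not tested.

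The other windows with most G reads kept closer to the pooled ratio. In chr17:37360800-37360899 the plus strand had 31 of 5780 reads with ABA and 6 of 4590 without ABA, a ratio of 4.10 (1.69 to 12). The minus strand of chr1:91853000-91853099 had 36 of 5109 reads with ABA and 24 of 3860 without ABA, a ratio of 1.13 (0.658 to 1.99). Of its reads with G, 28 with ABA and 21 without ABA came from the single position named above. The minus strand of chr3:12877600-12877699 had 27 of 4505 reads with ABA and 18 of 4199 without ABA, a ratio of 1.40 (0.742 to 2.70). The shallower strand of all 5 of these windows had 0 G reads in both libraries, from 78 to 248 reads with ABA and 77 to 293 without ABA, depths at which a count of 0 allows a rate above that of the deeper strand.

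Windows with most base reads were not those with most G reads. The plus strand of chr21:9827400-9827499 had the most, at a mean depth of 300 reads with ABA and 283 without ABA, and its rate was 0.215% (18 of 8376) with ABA and 0.241% (19 of 7894) without ABA. In chr11:85195100-85195199 the plus strand had 8 of 6669 reads with ABA and 6 of 6267 without ABA. In chr17:8280900-8280999 the minus strand had 12 of 5935 reads with ABA and 12 of 6541 without ABA. None of these strands differed between the libraries beyond counting error. The plus strand of chr1:45243700-45243799 had 15 of 6305 and 8 of 5459 reads with and without ABA, and that of chr11:75115800-75115899 had 13 of 5334 and 15 of 5398, again within counting error. The shallower strands of these 5 windows held 0 G reads with ABA and 1 without ABA.

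The most even and the most uneven windows with at least 1000 base reads stood at the ends of the range of balance. Windows chr14:24909100-24909199, chr6:170104100-170104199, chr2:37429000-37429099, chr17:27047700-27047799 and chr16:732600-732699 had shallower-strand shares of 43.5% to 49.8%. Their strands were 9.87 to 19.4 reads deep on average with ABA and 11 to 19.7 without ABA, and no strand of theirs held more than 1 G read. The most uneven window, chrX:108297700-108297799, had a plus strand of 314 reads with ABA and 321 without ABA, and a minus strand of 9.80 reads with ABA and 10.4 without ABA, a share of 3.08%. Its plus strand had 11 of 3766 reads with ABA and 5 of 3845 without ABA, a ratio of 2.25 (0.719 to 8.25). The next, on chromosomes 21, 6, 2 and 5, had shares of 3.79% to 4.92%, and their shallower strands had 0 G reads in both libraries.

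Neighbouring bases were read from the files, on the deeper strand, since a listed A there or a listed A of the opposite strand shows that the neighbour is an A or a U. A neighbour that is neither is a C, a G or an A or U that was not listed. A base listed on neither strand at the 3′ side went with higher A-to-G rates. There the rate was 0.363% with ABA and 0.162% without ABA, against 0.152% and 0.116% before an A, and 0.179% and 0.113% before a U. The rate before an unlisted base over that before an A was 2.39 (2.14 to 2.67) with ABA and 1.40 (1.22 to 1.60) without ABA. This contrast was thus larger with ABA, by a factor of 1.71 (1.44 to 2.03). Over that before a U it was 2.03 (1.76 to 2.34) with ABA and 1.44 (1.20 to 1.73) without ABA, a factor of 1.41 (1.13 to 1.77).

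On the 5′ side the rate with ABA was 0.318% after an A, 0.345% after a U and 0.236% after an unlisted base. Without ABA these rates were 0.146%, 0.130% and 0.138%. After an A the rate over that after an unlisted base was 1.35 (1.23 to 1.47) with ABA and 1.05 (0.928 to 1.19) without ABA, and after a U it was 1.46 (1.27 to 1.69) with ABA and 0.943 (0.748 to 1.18) without ABA. A 5′ contrast was therefore found in the ABA library and was larger than in the library without ABA, by factors of 1.28 (1.10 to 1.49) and 1.55 (1.20 to 2.02).

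A U can be seen only where the opposite strand is listed, so both contrasts were taken again over positions with a listed base of the opposite strand within 5 nt. With ABA the 3′ contrast was again past counting error, and without ABA it was not. The rate before an unlisted base was 1.82 times (1.46 to 2.28) that before an A with ABA and 1.05 times (0.802 to 1.38) without ABA, a factor of 1.74 (1.24 to 2.44) between the libraries. Set against a U it was 1.72 (1.41 to 2.10) with ABA and 1.15 (0.888 to 1.48) without ABA, a factor of 1.5 (1.09 to 2.05). The 5′ contrast was no longer beyond counting error, at 1.10 (0.899 to 1.34) after an A and 1.03 (0.816 to 1.28) after a U with ABA. The shallower strand had too few G reads for either contrast, with 5, 5 and 12 after an A, a U and an unlisted base with ABA and 4, 1 and 13 without ABA.

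**Figure D5:**
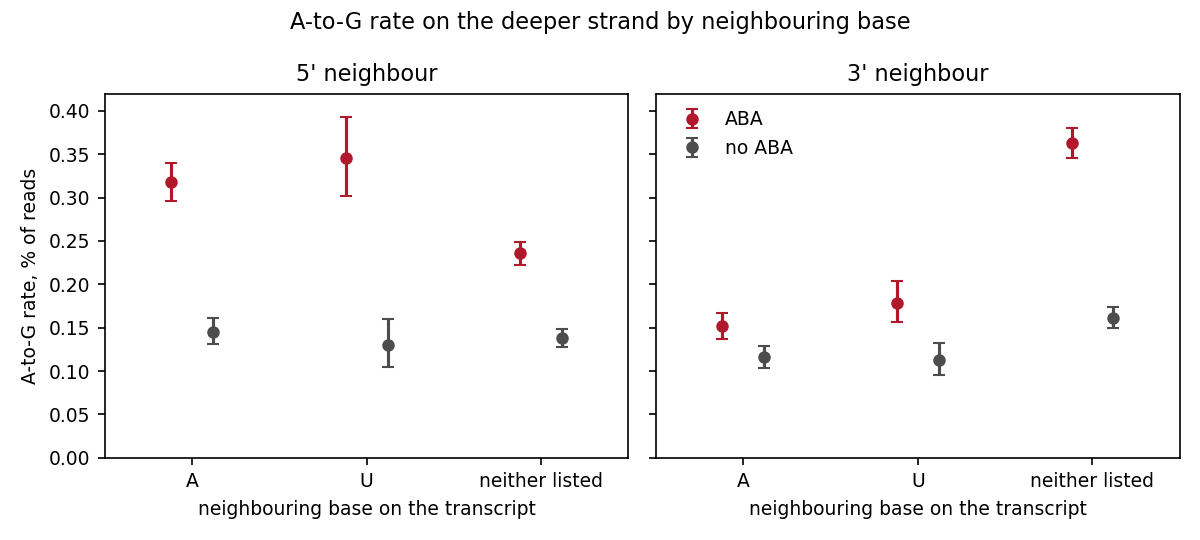
A-to-G rate in % of reads on the deeper strand by the 5′ and 3′ neighbour, with 95% counting intervals and 1 library per colour. The point for an unlisted 3′ neighbour with ABA, at 0.363%, lies above those for A and U, at 0.152% and 0.179%, and the spread without ABA is smaller.

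The 605 windows formed 431 runs of adjacent windows, of which 301 were single windows and 103 were pairs. Reads within 1000 nt on either side of a run were used to ask which strand surrounds it, counting a side as 1 strand where at least 90% of its base reads lay there. Runs surrounded by 1 and the same strand were the most common of the named kinds, with 242 windows in 180 runs. In 233 of the 242 the deeper strand was also the strand of the surrounding reads, so the shallower strand was the one with at most 10% of the reads around it. Their median shallower-strand share was 12.8%. The deeper strand had 0.276% with ABA and 0.133% without ABA, a ratio of 2.08 (1.87 to 2.31), and the shallower strand had 8 of 20255 reads with ABA and 5 of 25463 without ABA.

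Tail-to-tail runs, with plus-strand reads to the left and minus-strand reads to the right, held 33 windows in 22 runs. Their median share was 42.7%, near even depth. The deeper strand had 18 of 10764 reads with ABA and 12 of 10690 without ABA, a ratio of 1.49 (0.679 to 3.39). The shallower strand had 3 of 4629 reads with ABA and 1 of 4561 without ABA. At these counts no difference between strands or libraries was detectable in tail-to-tail windows. Head-to-head runs, with the strands the other way round, held 5 windows in 2 runs, and the remaining 325 windows in 227 runs had few or mixed reads on at least 1 side.

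The longest runs differed in kind. A run of 6 windows, chr6:33243500-33244099, had its plus strand deeper throughout, with mean depths of 73.2 to 174 reads with ABA and 74.8 to 182 without ABA, and shallower-strand shares of 8.59% to 13.3%. Its shallower strand held 1 G read with ABA and none without ABA. A tail-to-tail run of 5 windows, chr19:11033200-11033699, changed its deeper strand from window to window, with shares of 37.4% to 49%, and no strand in it had more than 1 G read. The other run, the 5 windows of chr21:9827000-9827499, had its plus strand deeper throughout and shares of 3.79% to 17.4%.

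Genes could be named only where listed A and T positions matched a RefSeq promoter, 250 bases before to 50 after a gene's start, in at least 20 letters and with no mismatch. Of 35116 promoters searched, those of 5 genes matched 6 of the windows, each over 35 letters or more. The promoter letters are RefSeq's GRCh38.p14 plus-strand or minus-strand sequence along the deeper strand of the window, placed in hg19 by the match. They are shown because they let both strands' A positions be seen at a named place. Capitals mark bases listed in the files, A for the deeper strand and T for the opposite one.
chr2:62115610-62115699, minus strand, COMMD1 promoter: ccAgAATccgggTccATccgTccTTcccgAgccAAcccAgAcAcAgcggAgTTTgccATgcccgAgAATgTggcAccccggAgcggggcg
chr9:130213600-130213699, plus strand, LRSAM1 promoter: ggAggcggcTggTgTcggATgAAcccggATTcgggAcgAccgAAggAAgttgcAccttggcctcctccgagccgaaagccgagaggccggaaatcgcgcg
chr17:41152000-41152099, plus strand, LOC124904006 promoter: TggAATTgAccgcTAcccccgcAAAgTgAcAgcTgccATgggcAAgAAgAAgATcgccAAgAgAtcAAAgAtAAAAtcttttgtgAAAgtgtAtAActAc
chr19:36066500-36066592, plus strand, LOC124904704 promoter: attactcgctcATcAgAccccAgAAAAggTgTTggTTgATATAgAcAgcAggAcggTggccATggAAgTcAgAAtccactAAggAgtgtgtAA
COMMD1, a gene of copper metabolism and protein sorting, lies on the plus strand, and CCT4, a subunit of a chaperone of the cytosol, overlaps its promoter on the minus strand. This window was 1 of the 5 head-to-head ones. Its minus strand had a mean depth of 20.8 reads with ABA and 20.7 without ABA, its plus strand 11.1 with ABA and 15.3 without ABA, and neither had a G read.

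At the LRSAM1 promoter, which the ribosomal protein gene RPL12 overlaps on the minus strand, depth was nearly even. The plus strand, that of the ubiquitin ligase LRSAM1, had 12.8 reads with ABA and 16.4 without ABA, and the minus strand had 10.8 with ABA and 17.2 without ABA, again with no G read. LOC124904006 is a long non-coding RNA gene of the minus strand, and RPL27, a ribosomal protein gene, overlaps its promoter on the plus strand. In the window printed, the plus strand had 123 reads with ABA and 115 without ABA, with G in 6 of 4424 reads with ABA and 6 of 4140 without ABA, while the minus strand had 9 reads with ABA and 10 without ABA and no G read. The adjoining window, at 41151900, had 79.2 reads with ABA and 85.2 without ABA on the plus strand and 1 G read in each library, on the plus strand with ABA and on the minus strand without ABA. At LOC124904704, a long non-coding RNA gene of the plus strand, that strand had 6 of 3495 reads with ABA and 4 of 3032 without ABA, and the minus strand had none. The remaining match was at chr9:127115700-127115799, the LOC100129034 promoter, which NEK6 and PSMB7 also overlap. There the minus strand had 16.9 reads with ABA and 27.4 without ABA, the plus strand had 8 with ABA and 9.67 without ABA, and neither had a G read. In each of these promoter windows the intervals of the 2 libraries overlapped on both strands. A match names the promoter only, and whether the reads came from the named gene or from a similar sequence elsewhere was not tested.

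Both-strand windows were spread over all 23 chromosomes, with the ABA library higher in rate on 21 of them, though on 6 of the 21 the interval of the ratio included 1. Chromosome 20 went the other way, with 0 of 3009 reads with ABA and 3 of 3715 without ABA, within counting error. Chromosome 19 had 93, which is 1.18% of its windows, against a median of 0.292% over chromosomes. Their rate was 0.320% with ABA and 0.139% without ABA, a ratio of 2.30 (1.95 to 2.71). The 10 windows of chromosome 21 had 0.468% with ABA and 0.167% without ABA, a ratio of 2.79 (1.99 to 3.98), with 44 of the 148 G reads with ABA in the window that passed the test. The 2 windows of chromosome 18 had no G read.

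The rule needs 5 positions on each strand, and 122 windows had exactly 5 on the strand with fewer positions. On that strand they had 4 G reads of 7327 with ABA and 5 of 8659 without ABA, and on the other strand 0.230% with ABA and 0.118% without ABA. The 105 windows with exactly 4, just outside the rule, had 11 G reads of 5057 with ABA (0.218%) and 4 of 5978 without ABA on the strand with fewer positions, and 0.220% with ABA and 0.117% without ABA on the other.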

How the data were processed

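Messenger RNA of HEK-293T cells was sequenced, with 1 library per condition. The submitters' processing notes name cutadapt, HISAT2 and the hg19 build; which program counted bases is not given in the sources used. The authors deposited counts of reads with each base at listed positions, not normalised, in 2 files per library and with a read cutoff of 5, per the file headers. A positions are listed for the plus strand and T positions for the minus strand, the second read here as their complement. Whether positions count from 0 or 1 is not stated, so they are given as in the files.

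Positions listed in both libraries on chromosomes 1 to 22 and X were used. Those with a G share of at least 35% in either library, called variant-like, were left out of A-to-G rates (8 on deeper and 9 on shallower strands), as were such positions for the other changes. Intervals of rates are Clopper-Pearson, ratios have exact conditional binomial intervals, and those of ratios of ratios and of weighted rates are normal approximations on read counts. The test per window strand was run on simulated data, with 0 calls among 176947 unchanged strands. Those strands had independent reads and 1 pooled rate, equal in both libraries. In the data, rates differed between strands and libraries and reads were not independent. The 0 calls therefore do not show how often the test calls falsely here. Named windows were the 5 with most base reads, most G reads with ABA, highest and lowest shallower-strand share (at least 1000 base reads), the 3 longest runs, and any that passed the test, with at most 3 windows of 1 run named singly. Members, lists and tests were chosen with earlier results of these data known, and the promoter match, the neighbouring bases, the flanking reads and the removal of chromosomes 19 and 21 were added after the data were seen. An annotation of hg19 was not used here, so the planned count of windows by gene was not run. Alternatives were the depth minimum, the number of positions, the window offset, the variant-like positions, the position with most G reads, the deepest strands, depth classes and size in place of a test. Tools were Python 3.11.15 (random seed 1), scipy 1.17.1, numpy 2.4.6, matplotlib 3.10.9 and pandas 2.3.3.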

Additional observations from a re-analysis of the deposited data

How the results depend on the processing

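Over 14 results and 12 alternatives, 114 of 128 values kept their side of the threshold, or stayed within the limit set for counts. A change of direction was counted only where the main or the alternative value was past the threshold. The shallower-strand ratio at 10 reads and more therefore counts as kept, though it fell below 1. So do values below 1 of the both-strand ratio over the one-strand ratio. The ratio of ABA to no ABA in both-strand windows ran from 1.67 to 2.23, and its quotient over the one-strand ratio from 0.924 to 1.15. The rate in both-strand over one-strand windows ran from 1.59 to 11.5 with ABA and from 1.55 to 11.8 without ABA, lowest at like depth and highest without the position of most G reads, a step that leaves few G reads in one-strand windows by its construction. The shallower-strand ratio ran from 0.464 (0.106 to 1.61), at 10 reads and more, to 1.76, never past counting error.

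With at least 20 reads the plus-strand ratio was 1.38 (0.934 to 2.06). The shallower-strand over the deeper-strand ratio was 0.612 (0.481 to 0.778) with variant-like positions kept and 0.253 (0.0791 to 0.811) at 10 reads and more, both beyond counting error, and had no value without the position of most G reads. The cause was not tested. The strands raised numbered 0 at 10 and at 20 reads, with windows shifted by 50 nt, without the position of most G reads, without the deepest 1% of strands and without chromosome 21, and 92 by size alone, where 9 were lowered. Windows numbered 199 at 10 reads, 18 at 20 reads and 196 with 10 positions on each strand. No paired analysis was possible because each condition had 1 library. The shallower strand is limited by depth, with 22 G reads with ABA and 18 without ABA.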
